A study of Mus musculus with 24 samples.

Results

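Voltage-gated ion channels are membrane pores that open when the membrane potential shifts, and they set how neurons fire. Calcium channels couple depolarization to transmitter release and to signaling towards the nucleus. Their pore subunits (Cacna1 genes) work with the auxiliary α2δ (Cacna2d) and β (Cacnb) subunits that carry them to the membrane. Sodium channels drive the rising phase of the action potential, potassium channels end it and hold the membrane near rest, and HCN channels open on hyperpolarization and shape pacemaking and dendritic integration. In the dentate gyrus, granule cells fire sparsely, and these channels set that threshold. DNA methylation of CpGs is usually low at active or poised CpG-rich promoters and high along gene bodies.

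The 39 genes analyzed here were 15 calcium, 18 potassium, 3 sodium and 3 HCN channel genes, all on autosomes. Their CpGs were all those measured inside the GENCODE M21 span of a gene on GRCm38 (mm10) or within 2 kb of it. This gave 2674 CpGs of 694379 in the whole table, where each strand of a CpG counts on its own. A promoter CpG lay within 1 kb of the start of any annotated transcript of the gene (1271 CpGs), a body CpG lay elsewhere in the span (1304 CpGs), and the remaining 99 were flanking CpGs. All 2674 sat at a CG of the reference on their strand, and none was shared by 2 of these genes. Some promoter CpGs also lay within 1 kb of a start of a neighbouring gene that is not a channel. These were 5 of 6 in Cacna2d4, with the protein-coding Lrtm2, and otherwise neighbours annotated as noncoding, antisense, pseudogene or unclassified transcripts, with 29 of 35 in Cacnb1, 23 of 28 in Cacnb2, 27 of 27 in Kcnd3, 29 of 33 in Kcnma1, 14 of 16 in Kcnq3, 18 of 31 in Kcnn1, 38 of 61 in Kcnn2, 7 of 63 in Kcnq5 and 1 of 35 in Cacna2d1.

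Methylation was measured by reduced representation bisulfite sequencing (RRBS) in micro-dissected dentate gyrus of 24 female C57BL/6JRj mice, in 3 groups of 8. Young STD mice were 3 months old and lived in standard cages (STD). Aged STD mice were 17 months old and lived in standard cages. Aged ENR mice were also 17 months old and had spent 3 months in environmental enrichment (ENR), a large enclosure with changing objects and a bigger social group. No age-matched young enriched group enters these comparisons, and housing in ENR also changed the number of cage mates, so the parts of the enrichment cannot be told apart.

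The mice differed in how many channel CpGs they covered. Between 1424 and 1826 had a value in a Young STD mouse (median 1587), between 1118 and 2159 in an Aged STD mouse (median 1477), and between 1111 and 2302 in an Aged ENR mouse (median 1762.5). Only 21 channel CpGs had a value in all 24 mice, and the median CpG had one in 14. Read numbers behind a value were unknown, so no interval for a single value can be given. Of all channel values, 58.6% were exactly 0 and 25.5% exactly 100. Even at the 459 channel CpGs with a mean between 20 and 80%, only 31.0% of the mouse values lay between 20 and 80%. One library, Aged STD replicate 5, stood apart over gene bodies in general, with 50.2% against 54.03% in the next lowest mouse of its group. Class differences are therefore given with and without it. Values per gene and mouse were adjusted for which CpGs a mouse covered and can fall below 0% or above 100%.

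Channel promoters were mostly unmethylated and channel bodies mostly methylated, in all 3 groups. Of the 37 genes with a measured promoter CpG, 31 had a mean promoter methylation under 20%, and 27 of them were under 10%. Bodies ran from 1.14 to 96.1% over the 39 genes, with 28 genes between 20 and 80%, 9 above 80% and 2 below 20%. Over the CpGs themselves, 92.9% of channel promoter CpGs and 86.8% of promoter CpGs of all genes were under 20%. In bodies, 43.6% of channel CpGs and 42.4% of those of all genes were above 80%. Body CpGs under 20% made up 25.5% in channel genes and 32.3% in all genes, and no test was made of these shares.

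**Figure D1:**
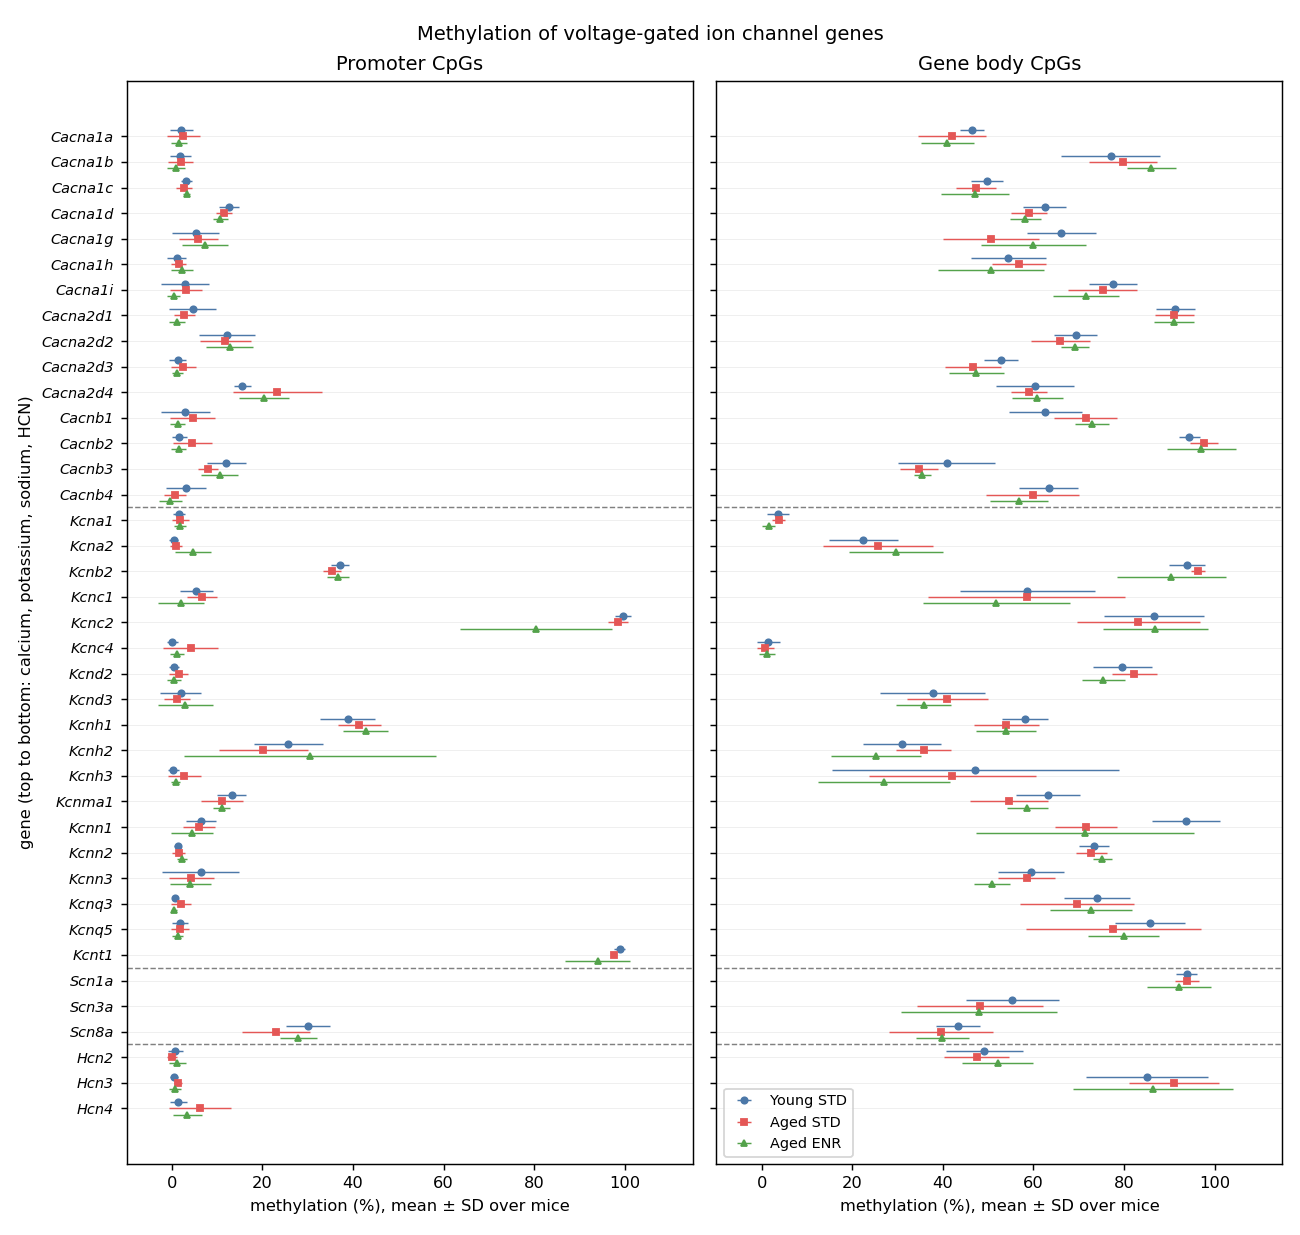
Methylation (%) at promoter CpGs (left) and body CpGs (right) of each of the 39 channel genes, as the mean ± SD over the mice with a value in Young STD (circles), Aged STD (squares) and Aged ENR (triangles). Genes without a symbol had too few covered CpGs. Most promoters sit near 0%, Kcnc2 and Kcnt1 lie far to the right, and in bodies Kcna1 and Kcnc4 lie near 0%.

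Among the calcium channel promoters, the lowest was Cacna1h, the pore subunit of the T-type channel Cav3.2, with 1.43% over 56 CpGs. The highest with at least 10 CpGs was Cacna2d2, an α2δ subunit, with 12.5% over 45 CpGs. Calcium channel bodies ranged from Cacnb3, a β subunit, with 37.1% over 18 CpGs, to Cacnb2, another β subunit, with 96.1% over 24 CpGs. Cacna1c, the pore subunit of the L-type channel Cav1.2, held the most CpGs of any member, 245. In Young STD mice its promoter stood at 3.14 ± 1.22% and its body at 49.8 ± 3.49% (SD, n = 8).

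Potassium channel genes spread most widely. Among those with at least 10 CpGs, Kcnd2, which encodes the A-type channel Kv4.2 of dendrites, had the lowest promoter with 1.03% over 19 CpGs. Kcnh1, which encodes an ether-à-go-go channel, had the highest promoter in that set with 41.4% over 13 CpGs. Kcnb2, a delayed rectifier gene, had the highest body in it with 93.8% over 35 CpGs. The lowest body was that of Kcnc4, which encodes the fast channel Kv3.4, with 1.14% over 16 CpGs. Kcna1, the gene of the axonal channel Kv1.1, was close to it with 2.87% over 42 CpGs, and all 42 were under 20%.

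Of the sodium channel genes, Scn8a, which encodes Nav1.6 of the axon initial segment, was the only one with promoter CpGs in the table (45 CpGs, 27.0%). Scn1a and Scn3a had none. In bodies, Scn8a stood at 41.3% over 57 CpGs and Scn1a, the gene of Nav1.1, at 93.0% over 19. HCN promoters were the least methylated class, from 0.810% at Hcn2 (50 CpGs) to 3.30% at Hcn4 (24 CpGs), and no HCN promoter CpG exceeded 20%. The Hcn2 body reached 49.1% over 15 CpGs.

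In most genes with a high or intermediate promoter mean, the methylated CpGs lay at internal transcript starts. Among the 83 annotated starts with at least 3 CpGs nearest to them, 69 were under 20%, 6 between 20 and 80% and 8 above 80%. Cacna1d, Kcnb2, Kcnh1, Kcnma1 and Scn8a had both an unmethylated and a methylated start. At Kcnb2, the internal start at chr1:15312452 had 14 CpGs with a mean of 96.3%. The 7 measured promoter CpGs of Kcnt1, a sodium-activated potassium channel gene, all belonged to 1 internal start and averaged 97.7%. Those of Kcnc2, which encodes Kv3.2, likewise lay at 2 internal starts, with 3 CpGs each and means of 91.8 and 87.8%. The promoter values of Kcnc2 and Kcnt1 therefore describe internal starts only.

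The reference sequences of 3 windows show the methylated internal start of Kcnb2, and an unmethylated and a methylated start of Kcnma1, which encodes the large-conductance calcium-activated BK channel. They are the plus strand of GRCm38 from 5′ to 3′, and capitals mark the CpGs that were measured. Over the measured CpGs of each window, methylation averaged 96.3% at the internal Kcnb2 start (14 CpGs, all exonic and in coding sequence). It averaged 0.659% at the upstream Kcnma1 start (8 CpGs) and 87.1% at the internal one (4 intronic CpGs). The upstream Kcnma1 window held 12 CGs in 260 bases, the internal one 4 in 201 bases, and the Kcnb2 window 13 in 233 bases.
Kcnb2 internal start, chr1:15312613-15312845: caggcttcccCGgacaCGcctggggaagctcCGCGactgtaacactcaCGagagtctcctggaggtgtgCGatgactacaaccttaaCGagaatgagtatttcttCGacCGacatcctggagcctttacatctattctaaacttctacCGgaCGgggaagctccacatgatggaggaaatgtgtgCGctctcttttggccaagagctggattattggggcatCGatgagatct
Kcnma1 upstream start, chr14:24004969-24005228: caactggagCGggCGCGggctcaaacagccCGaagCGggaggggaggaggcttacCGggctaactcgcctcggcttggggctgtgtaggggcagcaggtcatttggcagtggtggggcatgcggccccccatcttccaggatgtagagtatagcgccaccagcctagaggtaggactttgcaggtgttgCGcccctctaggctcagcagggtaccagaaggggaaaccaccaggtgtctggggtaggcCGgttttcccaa
Kcnma1 internal start, chr14:23555229-23555429: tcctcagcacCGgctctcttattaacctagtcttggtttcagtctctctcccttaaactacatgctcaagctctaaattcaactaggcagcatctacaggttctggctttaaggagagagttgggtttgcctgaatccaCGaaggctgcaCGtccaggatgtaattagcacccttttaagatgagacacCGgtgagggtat

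RRBS reads fragments that start at CCGG, the MspI site, so this motif bears on which CpGs were read. It is its own reverse complement, and both strands therefore hold it together. RefSeq promoter windows on GRCm38 (250 bases before to 50 after a start) were given for 27 of the 39 genes, 41 windows in all. Of these, 30 held CCGG (73.2%), compared with 52.8% of all 32851 promoters. The 18 windows with a measured CpG all held it, and all 18 averaged under 20%. The median window held 23 CGs among the channel genes and 7 among all promoters. No RefSeq window was matched for Cacna1a, Cacna1g, Cacna1h, Cacna2d4, Hcn3, Kcna1, Kcnb2, Kcnh3, Kcnn2, Kcnq3, Kcnt1 and Scn3a.

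Methylation was low within 1 kb of the nearest own start and higher beyond, but not in even steps. Channel CpGs averaged 3.72% in the 500 bp before a start, 10.002% in the 500 bp after it and 5.85% in the next 500 bp, against 5.75, 6.14 and 12.9% over all protein-coding genes. They averaged 40.1% from 1 to 5 kb, 59.1% from 5 to 20 kb and 69.5% beyond 20 kb, against 38.4, 60.7 and 59.4%. From 1 to 5 kb, potassium channel CpGs averaged 15.7% (101 CpGs of 11 genes) and calcium channel CpGs 54.6% (142 CpGs of 13 genes). Among those 101 are the 42 body CpGs of Kcna1, a gene of 5.99 kb, with a mean of 2.87%. The potassium value without Kcna1 was not computed. Beyond 20 kb the order of the classes was the opposite, with 79.2% in potassium and 59.4% in calcium channel genes. These are averages over CpGs of few genes, and no test was made between classes. Body CpGs in exons were less methylated than those in introns, with means of 42.3% (323 CpGs) and 63.4% (981 CpGs). The gap was widest in potassium channel genes, with 29.1 and 67.8%. In sodium channel genes exons were higher, with 60.7 against 52.1%, over only 18 exonic CpGs.

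**Figure D2:**
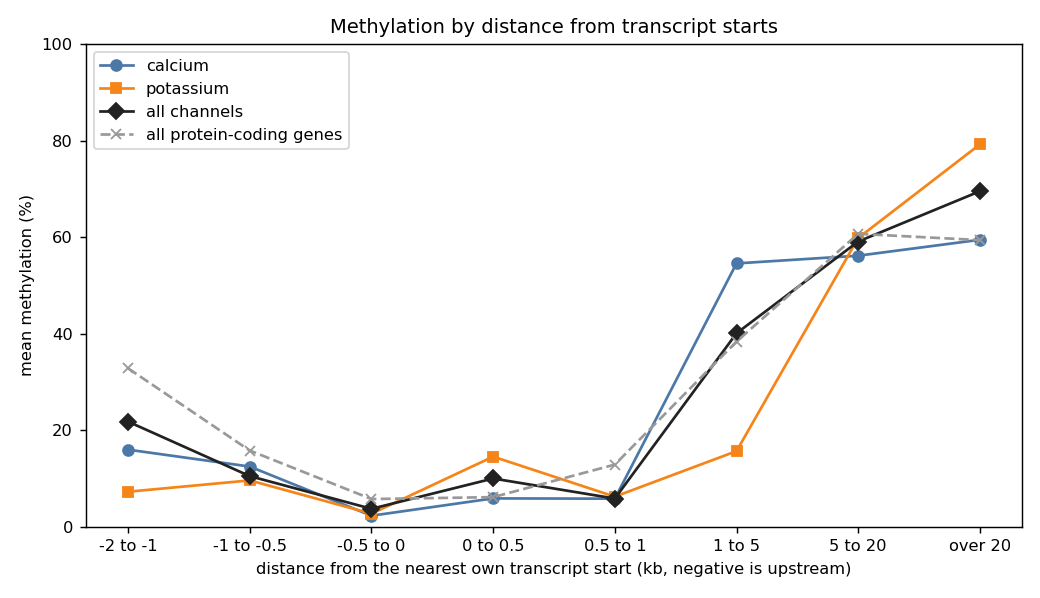
Mean methylation (%) of CpGs by distance (kb) from the nearest transcript start of their own gene, for calcium channel, potassium channel, all channel and all protein-coding genes. All lines are lowest near the start. From 1 to 5 kb the calcium line lies at 54.6% and the potassium line at 15.7%, where 42 of 101 potassium channel CpGs are those of Kcna1.

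Aging was first compared by class, as Aged STD minus Young STD. Calcium channel bodies held 61.4 ± 1.99% (SD, n = 8) in Young STD, with a lowest, median and highest mouse of 58.9, 61.0 and 65.1%. Aged STD mice had 58.3 ± 1.88%, with 55.4, 58.2 and 60.6%. Of the Young STD mice, 5 of 8 lay above every Aged STD mouse, and the groups overlapped in the others. The difference was -3.15 points, and -3.00 points without Aged STD replicate 5, beside -0.885 and -0.305 points for the bodies of all genes. As a plain mean it was -5.00 points. Because the genes were chosen with earlier results known, no p-value is attached to a class.

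Potassium channel bodies had 58.0 ± 1.59% in Young STD and 56.2 ± 3.93% in Aged STD, a difference of -1.81 points. It was -1.15, -1.19 and -0.857 points when Aged STD replicates 5, 7 and 8 were left out in turn, and -3.17 points as a plain mean. Sodium channel bodies differed by -3.30 points, and by -1.28, -1.94 and -1.76 points without Young STD replicate 1, Young STD replicate 4 and Aged STD replicate 7. Without Aged STD replicate 5 it was -2.50 points, with a promoter window of 2 kb -1.80 points, and over CpGs with at least 5 mice a group -1.63 points. HCN bodies, with 20 CpGs, differed by -6.15 points, and by -0.0612, -0.394, -0.534 and -3.90 points without Young STD replicates 1, 2, 3 and 7. The HCN value was -5.29 points without Aged STD replicate 5, -10.10 as a plain mean and -2.71 over CpGs with at least 5 mice a group. At promoters, the aging differences of calcium and potassium channels were -0.194 and 0.0644 points, smaller than the SD between mice in either group, and both took either sign when single mice were left out (-0.455 to 0.0331 and -0.335 to 0.348 points). Without Aged STD replicate 5 they were -0.217 and 0.187 points. The promoters of all genes had -0.105 points, and 0.0144 without that mouse. Calcium channel promoters had -1.01 points with a window of 2 kb, -0.708 as a plain mean and 0.127 over CpGs with at least 5 mice a group. Potassium channel promoters had 0.440 and 0.130 points with windows of 0.5 and 2 kb, -1.25 as a plain mean and -0.384 over CpGs with at least 5 mice a group. The sodium class at promoters is Scn8a alone and is described with that gene. HCN promoters differed by 2.08 points, from 0.952 ± 0.863% to 3.03 ± 3.33%. That difference was between 0.955 and 1.17 points without any 1 of Aged STD replicates 5 and 8 and Aged ENR replicates 1, 6 and 8, with 1.14 points without Aged STD replicate 5. It was 0.0558 points over CpGs with at least 5 mice a group, and 4.02 and 1.31 points with promoter windows of 0.5 and 2 kb.

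**Figure D3:**
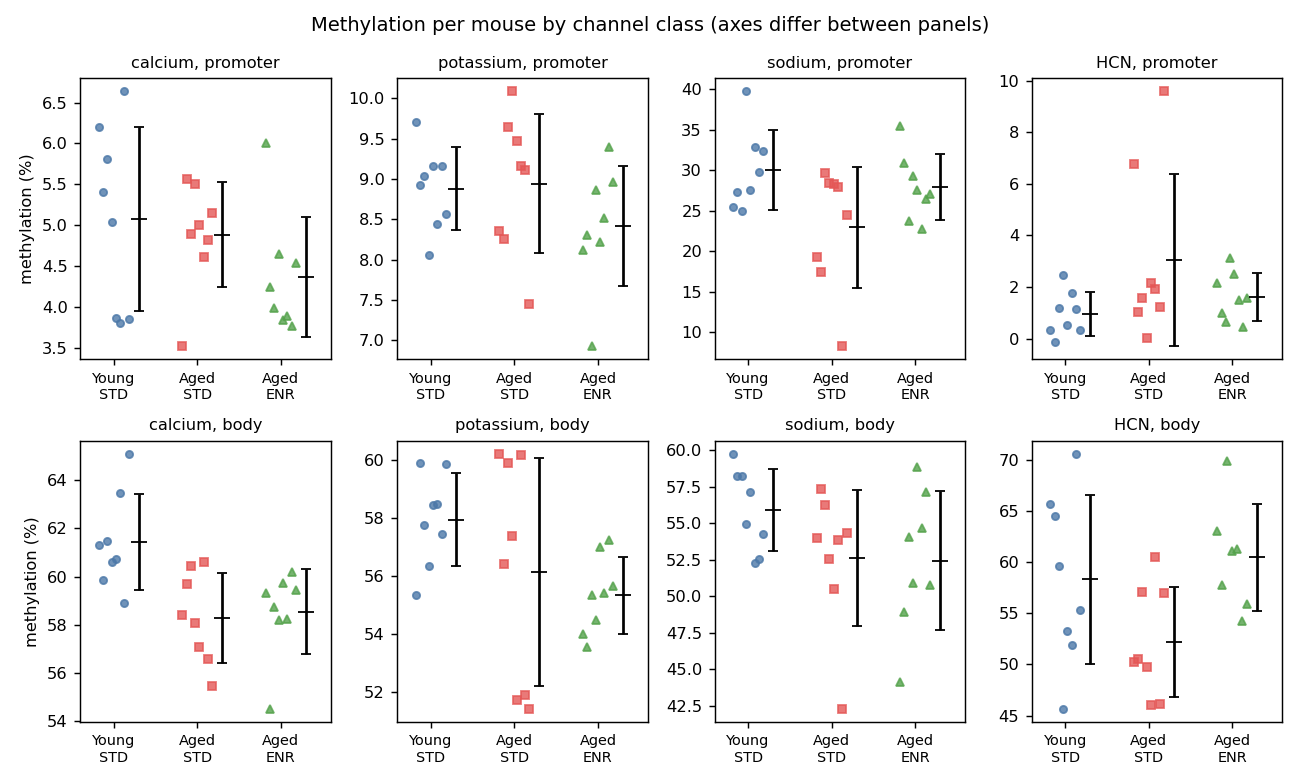
Methylation (%) of each channel class per mouse at promoters (top) and in bodies (bottom), with the mean and SD of each group as black bars. Axes differ between panels. In calcium channel bodies, 5 of 8 Young STD mice lie above all Aged STD mice, and the 3 groups overlap in every panel.

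Gene by gene, no channel passed an adjusted p of 0.05 for aging. The limma test over all genes called 0 of 33 tested channel promoters, against 0.0064% of 15630 promoters, and 0 of 34 tested channel bodies, against 0% of 9853 bodies. The smallest adjusted p was 0.872 at promoters and 0.600 in bodies. An unadjusted p under 0.05 was reached by 5 of 33 promoters (15.2%) beside 5.37% of all promoters, and by 4 of 34 bodies (11.8%) beside 6.1% of all bodies. Methylation was lower with age in 23 of 34 bodies, 67.6% beside 55.4% over all genes, and the median difference was -1.58 points beside -0.532. By class it was lower in 11 of 15 calcium, 9 of 15 potassium, 2 of 3 sodium and 1 of 1 HCN bodies. At promoters it was lower in 16 of 33. The 6 promoters without a test were those of Cacna2d4, Hcn3, Kcnq3, Kcnt1, Scn1a and Scn3a, and the 5 bodies were those of Hcn3, Hcn4, Kcnh3, Kcnn1 and Kcnt1, for lack of covered CpGs.

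The body with the smallest p for aging was that of Cacna1g, which encodes the T-type pore subunit Cav3.1 (chr11:94408391-94474198, minus strand). The lowest, median and highest Young STD mouse had 55.3, 63.6 and 79.1% over its 25 body CpGs. Aged STD mice had 33.3, 55.0 and 61.7%, and Aged ENR mice had 38.7, 58.6 and 73.7%. Of the Aged STD mice, 4 of 8 lay below every Young STD mouse. The difference was -15.51 ± 4.90 points (SE), with p = 0.00427 before and 0.600 after adjustment in limma, and 0.00249 in the exact two-sided permutation test. It stayed between -17.65 and -10.41 points when any 1 mouse was left out. Permutation p-values here and below are not adjusted for picking genes, CpGs and clusters by their small p. Aged ENR exceeded Aged STD by 9.34 points (adjusted p = 0.958 in limma), and by 5.19, 4.48 and 4.49 points without Young STD replicate 8, Aged STD replicate 4 and Aged ENR replicate 5. Leaving out a mouse of another group changes which CpGs are kept.

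Kcnma1, the BK channel gene (chr14:23289431-24014491), had a lower body as well. Young STD mice ran from 50.8 to 72.7% with a median of 62.5%, Aged STD mice from 40.1 to 68.4% with a median of 53.5%, and Aged ENR mice from 48.8 to 63.0% with a median of 60.0%. Only 2 Aged STD mice lay below all Young STD mice. The difference was -8.63 ± 3.42 points over 66 CpGs, with an adjusted p of 0.760 in limma and an exact permutation p of 0.0424.

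Cacna2d3, an α2δ subunit gene (chr14:28904943-29721864), followed with -6.19 ± 2.80 points over 54 CpGs (adjusted p = 0.801 in limma, exact permutation p = 0.0315). Its mice ran from 45.8 to 56.7% in Young STD (median 53.8%), from 37.5 to 56.9% in Aged STD (median 45.9%) and from 40.3 to 57.4% in Aged ENR (median 48.3%). Here the 2 aged groups lay at about the same height, and 4 of 8 Aged STD mice were below every Young STD mouse.

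Cacnb1, a β subunit gene (chr11:98001508-98023034), was higher with age by 8.91 ± 3.70 points over 11 CpGs, with an adjusted p of 0.790 in limma and an exact permutation p of 0.0693. Its 6 Young STD mice ran from 52.8 to 72.7% with a median of 61.7%, and its 6 Aged STD mice from 60.4 to 79.9% with a median of 71.3%. The difference fell to 4.02 and 3.89 points without Aged STD replicates 4 and 8, and it turned to -9.83 points when plain means replaced the adjusted values. For the body of Cacnb3, the fifth by p, 7 mice a group gave -6.05 ± 3.59 points (exact permutation p = 0.193). It was -9.37 and -2.38 points without Young STD replicates 1 and 2, 0.84 points with a promoter window of 2 kb and -2.77 points as a plain mean.

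At promoters, Scn8a (chr15:100869858-101045938) had the smallest p for aging. Young STD mice ran from 24.9 to 39.8% with a median of 28.7%, and Aged STD mice from 8.28 to 29.7% with a median of 26.2%. Aged ENR mice ran from 22.7 to 35.5% with a median of 27.4%. Of the Aged STD mice, 4 of 8 fell below the lowest Young STD mouse. The aging difference was -7.03 ± 2.76 points over 45 CpGs (adjusted p = 0.872 in limma, exact permutation p = 0.0387). It was -7.63 points without Aged STD replicate 5, but -2.81 points as a plain mean and -3.50 points over CpGs with at least 5 mice a group. The ENR difference was 4.91 ± 2.76 points (adjusted p = 0.931, exact permutation p = 0.123). Without Young STD replicate 2 and without Aged STD replicate 7 the ENR difference was 7.52 and 2.80 points, and as a plain mean it was -2.65 points. Without Aged STD replicate 5 it was 5.85 points, with a promoter window of 0.5 kb 8.10, over CpGs with at least 5 mice a group 2.51, and with mice weighted by their covered CpGs 3.10 points. At the Scn8a start at chr15:100970122, 4 CpGs averaged 90.3% in Young STD mice, 52.1% in Aged STD mice and 58.5% in the enriched mice, with no test of their own.

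The other 4 promoters were low in all groups. Cacnb3 had 12.0 ± 4.30% in Young STD and 7.94 ± 2.17% in Aged STD (n = 8 each), a difference of -4.07 points (exact permutation p = 0.0227). It was -2.19 and -2.53 points without Aged STD replicates 3 and 6, 0.015 points over CpGs with at least 5 mice a group and -6.92 points as a plain mean. Kcnc4 had 0.0967 ± 1.18% and 4.19 ± 6.05%, a difference of 4.09 points (exact permutation p = 0.0362). Its highest Aged STD mouse stood at 17.6% against a group median of 2.22%, and the difference was 2.601 and 2.197 points without Aged STD replicates 6 and 7. It was 2.594 and 1.97 points with promoter windows of 0.5 and 2 kb, and 2.23 points with mice weighted by their covered CpGs.

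Hcn4, which encodes a slow pacemaker channel, differed by 4.72 points (exact permutation p = 0.0657), with Aged STD mice from -0.542 to 19.8% and a median of 3.24%. The value lay between 1.98 and 2.92 points without any 1 of Aged STD replicates 1, 4 and 5 and Aged ENR replicates 1, 6 and 8. Kcnh3, an ether-à-go-go-like channel gene of the forebrain, differed by 2.42 points (exact permutation p = 0.0959). Leaving out Aged STD replicates 3, 4 and 6 gave 1.09, 0.408 and 1.44 points.

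ENR was compared as Aged ENR minus Aged STD, a comparison that shares the Aged STD mice with that of aging, so that the values of both are given side by side. By class, calcium channel bodies differed by 0.248 points (Aged ENR 58.5 ± 1.78%) and potassium channel bodies by -0.806 points (55.3 ± 1.32%), beside -0.480 points for the bodies of all genes. Without Aged STD replicate 5 these 3 differences were 0.292, -1.40 and -1.07 points. Leaving out single mice gave -0.424 to 0.961 for calcium and -1.78 to -0.148 points for potassium. Over CpGs with at least 5 mice a group, calcium channel bodies had 0.994 points and potassium channel bodies turned to 0.892 points. As plain means they had 0.0267 and -1.99 points, and with windows of 0.5 and 2 kb calcium channel bodies had 0.0354 and -0.186 points. Sodium channel bodies differed by -0.191 points, from -1.81 to 1.36 without single mice and by -0.412 without Aged STD replicate 5. With windows of 0.5 and 2 kb it was -0.334 and -1.02 points, as a plain mean -0.882 points and over CpGs with at least 5 mice a group -0.0975 points. HCN bodies differed by 8.30 points over 20 CpGs in 7 Aged ENR mice, by 4.68, 4.67 and 4.64 points without Young STD replicates 1, 2 and 3, by 7.48 without Aged STD replicate 5 and by 3.60 over CpGs with at least 5 mice a group. The Hcn4 CpG named above drops out without any of these Young STD mice, and also when 5 mice a group are required. The Hcn2 body differed by 4.70 points. Promoters differed by -0.519 points in calcium, -0.528 in potassium and -1.41 in HCN channels, beside -0.292 points for the promoters of all genes. Leaving out each mouse in turn gave -0.776 to -0.285, -0.697 to -0.260 and -2.80 to -0.272 points. Without Aged STD replicate 5 these were -0.447, -0.496 and -0.477 points, beside -0.418 for all genes. Over CpGs with at least 5 mice a group they were -1.71, 0.57 and 0.595 points, so that potassium and HCN promoters turned in direction, and with a promoter window of 2 kb calcium channel promoters turned to 0.150 points. HCN promoters had -3.44 and -0.606 points with windows of 0.5 and 2 kb, and potassium channel promoters -0.218 points with 0.5 kb and -0.801 as a plain mean. In calcium channel bodies, 6 of 8 Young STD mice lay above every Aged ENR mouse, and the difference from Young STD was -2.90 points in Aged ENR and -3.15 in Aged STD.

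For single genes, limma called 0 of 33 channel promoters for ENR, against 0.0128% of all promoters, and 0 of 34 bodies, against 0% of all. The smallest adjusted p was 0.931 and 0.951. An unadjusted p under 0.05 was found in 4 promoters (12.1%) beside 4.75% of all, and in 3 bodies (8.82%) beside 5.03%. All 3 bodies were potassium channel genes with lower methylation in Aged ENR. Of the 15 tested potassium channel bodies, however, 8 were lower and 7 higher, with a median difference of -0.0743 points. Over all channels, 18 of 34 bodies were lower with ENR, 52.9% beside 54.3% over all genes. Between Aged ENR and Young STD, 0 promoters and 0 bodies were called, against 0.0128% and 0% of all, with 3 promoters beside 4.89% and 3 bodies beside 6.66% at an unadjusted p under 0.05. In that comparison 26 of 34 bodies were lower in Aged ENR (76.5%, beside 58.7% over all genes).

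The first of the 3 bodies, Kcnh2, encodes the hERG-type channel (chr5:24319589-24351604). Aged STD mice ran from 24.5 to 42.3% with a median of 35.6%, and Aged ENR mice from 8.88 to 36.7% with a median of 28.4%. Young STD mice lay between them, from 18.9 to 42.1% with a median of 31.3%. Of the Aged ENR mice, 3 of 8 were below all Aged STD mice. The difference was -10.51 ± 4.10 points over 17 CpGs (adjusted p = 0.951 in limma, exact permutation p = 0.0222).

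Kcnn3, the gene of the small-conductance channel SK3 (chr3:89520164-89675132), had 47.3, 58.7 and 66.2% as the lowest, median and highest Aged STD mouse and 43.4, 51.6 and 55.5% in Aged ENR. Young STD mice had 46.1, 59.5 and 70.1%, a range like that of Aged STD. The difference was -7.73 ± 3.03 points over 30 CpGs (adjusted p = 0.951 in limma, exact permutation p = 0.0126), and -8.68 points against Young STD.

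Kcnd2, the Kv4.2 gene (chr6:21215503-21729805), had 73.9, 81.4 and 90.3% in Aged STD and 67.3, 73.9 and 81.6% in Aged ENR. Of the Aged ENR mice, 4 of 8 were below every Aged STD mouse. The difference was -6.93 ± 2.80 points over 31 CpGs (adjusted p = 0.958 in limma, exact permutation p = 0.0137). For these 3 genes the difference stayed within 1.5 times its size without any 1 mouse. Over CpGs with at least 5 mice a group, however, it was -2.34 points in Kcnh2 and -2.04 points in Kcnn3, and with a promoter window of 0.5 kb it was -7.00 points in Kcnh2. The nearly unmethylated body of Kcna1 had 3.71 ± 1.53% in Aged STD mice and 1.52 ± 1.37% with ENR (n = 8 each), with an exact permutation p of 0.0113 and an adjusted p of 0.958 in limma. That difference of -2.19 points was -0.862 points with a promoter window of 0.5 kb and -1.38 points over CpGs with at least 5 mice a group.

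**Figure D4:**
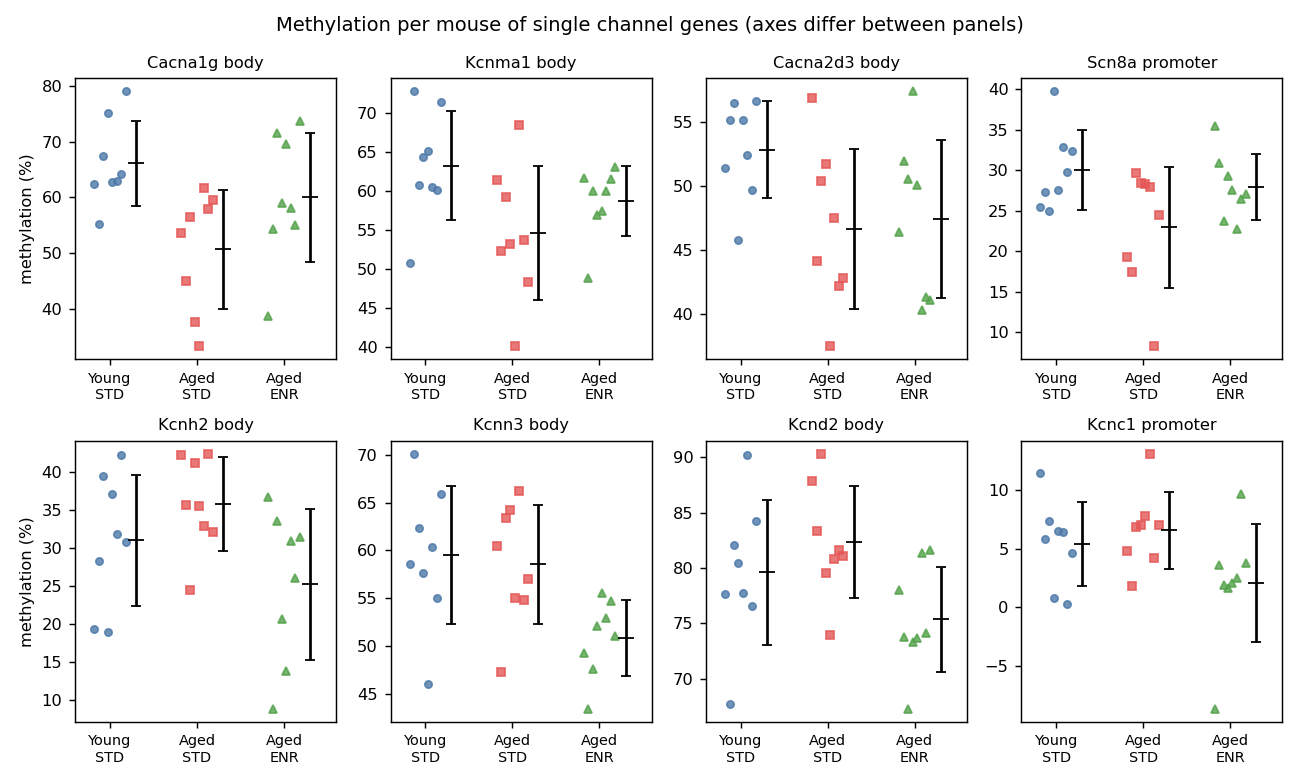
Methylation (%) per mouse of single channel genes in the 3 groups, with the mean and SD of each group as black bars. Axes differ between panels. Aged STD mice reach lowest in Cacna1g, Kcnma1, Cacna2d3 and Scn8a. The Aged ENR mean is the lowest of the 3 in Kcnh2, Kcnn3, Kcnd2 and Kcnc1, and the groups overlap in every panel.

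The lowest p for ENR at a promoter was that of Kcnc2, at its 2 internal starts. The 4 Young STD mice with a value had 98.0, 98.5, 99.98 and 102%, and the 4 Aged STD mice 95.5, 100, 100 and 98.5%. The 4 Aged ENR mice had 79.4, 98.0, 58.1 and 86.2%. The difference of -18.08 ± 6.47 points (adjusted p = 0.931 in limma) had an exact permutation p of 0.0571, and it rests on 6 CpGs and 3 low mice. Kcna2, the gene of the axonal channel Kv1.2, had 0.944 ± 1.32% (5 Aged STD mice) and 4.65 ± 3.93% (7 mice with ENR), a difference of 3.70 points (exact permutation p = 0.0644).

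Kcnc1, which encodes the fast channel Kv3.1, differed by -4.52 points (exact permutation p = 0.0387), and by -3.01 points without Aged ENR replicate 1. It was -0.887 points with a promoter window of 0.5 kb, -1.26 over CpGs with at least 5 mice a group and -2.50 as a plain mean. Cacnb2, most of whose promoter CpGs also lie near the start of a pseudogene, differed by -3.01 points (exact permutation p = 0.0802), and by -4.93, -5.01, -4.90, -4.56 and -5.72 points without Young STD replicates 1, 3 and 7 and Aged STD replicates 4 and 7. Over CpGs with at least 5 mice a group it was -6.01 points.

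Single CpGs were counted by size, as a difference of over 25 points between group means, without a read-level test. With age, 105 channel CpGs were higher, 3.93% beside 4.15% of all CpGs, and 156 were lower, 5.83% beside 5.01%. With ENR, 99 were higher, 3.7% beside 3.82%, and 140 lower, 5.24% beside 4.51%. Between Aged ENR and Young STD, 232 differed, 8.68% beside 8.43%. Opposite differences over 25 points for aging and ENR were found at 107 CpGs, 4% beside 3.49%, and since both use the Aged STD mice, a deviating Aged STD mean gives such a pair by itself. Over CpGs with at least 3 mice a group, all these shares lay near those of the whole table. Over CpGs with at least 5 mice a group, the shares were lower in both: 5.84% of 771 channel CpGs differed with age, 4.93% with ENR and 1.69% in opposite directions, beside 5.15, 4.72 and 1.64% of the whole table. With at least 7 mice, 8 of 120 channel CpGs differed with age (6.67%, beside 2.27%), 4 with ENR (3.33%, beside 2.13%) and 2 in opposite directions (1.67%, beside 0.535%).

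The large differences sat in bodies. There, 15.3% of channel CpGs differed with age and 15.2% with ENR, beside 13.4 and 12.5% in the bodies of all genes. At promoters the shares were 4.33 and 2.75%, beside 4.47 and 3.92%. Of the 261 channel CpGs that differed with age, 161 had an intermediate mean of 20 to 80%. They had values in a median of 13 mice, beside 14 at the other channel CpGs. Calcium channel bodies held 47 higher and 74 lower CpGs with age (6.28 and 9.89%), and potassium channel bodies 26 and 39 (5.76 and 8.65%), beside 6.00 and 7.44% in the bodies of all genes.

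**Figure D5:**
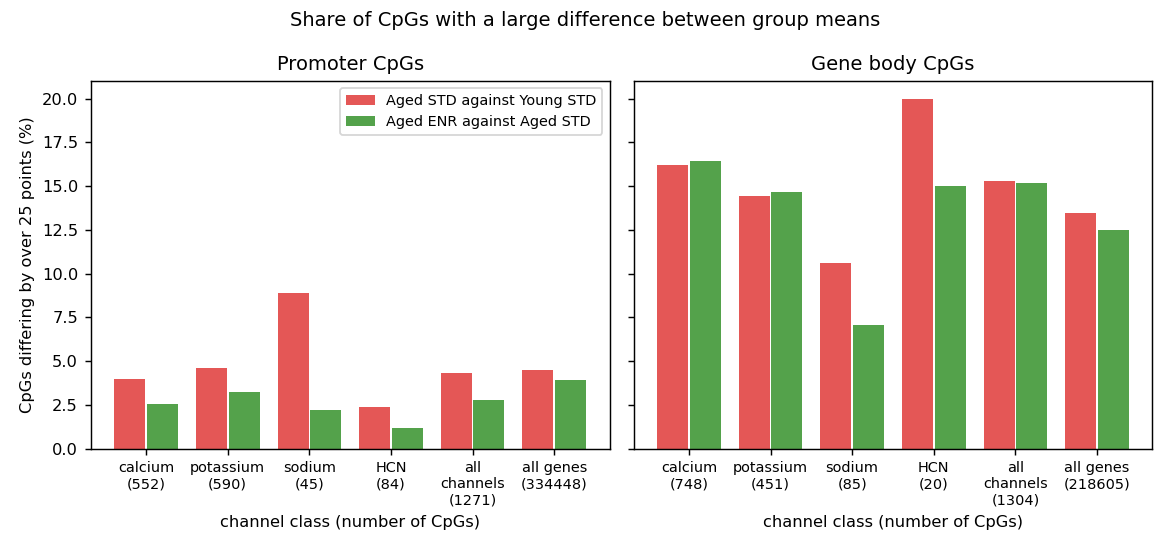
Share of CpGs (%) whose group means differ by over 25 points, for aging (red) and ENR (green), in each channel class, all channels and all genes, at promoters (left) and in bodies (right), with the number of CpGs in brackets. Bars of all channels and all genes are close, and bodies are higher than promoters.

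The limma test of single CpGs called 0 of 2674 channel CpGs for aging, against 0.00475% of all, and 0 for ENR, against 0.00432%. At an unadjusted p under 0.05 there were 73 (2.73%, beside 2.23%) and 52 (1.94%, beside 1.9%). The smallest p for aging was at an intronic CpG of Hcn4, chr9:58842758. All 3 Young STD mice with a value had 100%, all 6 Aged STD mice had 0%, and the 4 Aged ENR mice had 0, 50, 100 and 100%. The exact permutation p of 0.0119 is the smallest that 3 against 6 mice can give, and the adjusted p in limma was 0.723. The next 2 lay in introns of Cacna1i, the T-type Cav3.3 gene (chr15:80323171), with group means of 99.1, 39.3 and 85.4%, and of Cacna1d, the L-type Cav1.3 gene (chr14:30313504), with 71.6, 100 and 100%, in the order Young STD, Aged STD and Aged ENR.

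For ENR, the smallest p was at an intronic CpG of Kcnma1 (chr14:23989921). All 4 Aged STD mice with a value had 100%, and the 5 Aged ENR mice had 42.9, 0, 0, 0 and 36.4% (exact permutation p = 0.00794, the smallest for 4 against 5 mice, adjusted p = 0.869 in limma). An exonic CpG of Hcn2 (chr10:79735553) followed where 4 mice of either group averaged 1.79% (Aged STD) and 32.04% (Aged ENR), and an intronic CpG of Cacna1i (chr15:80367012) with 89.9 and 39.8% in 7 mice each (exact permutation p = 0.00117). Between Aged ENR and Young STD, the same Cacna1d CpG came first, and the others were an intronic CpG of Cacna1a, the P/Q-type Cav2.1 gene (chr8:84597413), with 20.03 and 93.7%, and another of Cacna1d (chr14:30108401), with 12.8 and 70.5%. Groups with so few mice leave wide room for error in these means.

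The members with the highest counts of opposite CpGs were Cacna1c with 10 of its 245 (4.08%), Kcnma1 with 8 of 99 (8.08%) and Cacna1a with 7 of 88 (7.95%), beside 3.49% of the whole table. Cacna1g, Cacna2d2, Cacna2d3 and Kcnh2 followed with 6 each, 8.57, 4.44, 5.41 and 14.3% of their CpGs. No test was made of these shares. The opposite CpG with values in the most mice lay in an intron of Cacna2d3 (chr14:29164950). Its 7 Young STD mice ran from 0 to 51.8% with a median of 21.8%, its 8 Aged STD mice from 0 to 100% with a median of 59.0%, and its 8 Aged ENR mice from 0 to 74.2% with a median of 9.04%. Both Aged STD and Aged ENR spanned most of the scale (exact permutation p = 0.0640 for aging and 0.0479 for ENR).

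At an intronic CpG of Kcnh2 (chr5:24320212), all 8 Young STD mice had 0%, Aged STD mice ran from 0 to 100% with a median of 10.9% (n = 6), and Aged ENR mice from 0 to 18.3% with a median of 0%. Here 2 of the 6 Aged STD mice had 100%. The third such CpG lay at -1977 bp from a start of Hcn3, an HCN subunit gene (chr3:89162173), with medians of 100, 40.3 and 80.3% in the same order.

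CpGs less than 100 bp apart were also joined into clusters of at least 3. Of the clusters that touch channel genes, 212 could be tested and 413 could not. Of the tested ones, 105 averaged under 20%, 40 between 20 and 80% and 67 above 80%. limma called 0 of 212 for aging, against 0.0035% of all clusters, and 0 for ENR, against 0%. An unadjusted p under 0.05 was found in 16 (7.55%, beside 4.86%) and 8 (3.77%, beside 4.13%).

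The cluster with the smallest p for aging lay from -1701 to -1299 bp of a Cacna1g start (chr11:94475497-94475899, 16 CpGs). It ran from 11.6 to 37.7% in Young STD (median 18.04%), from -3.10 to 17.7% in Aged STD (median 6.61%) and from -10.3 to 22.3% in Aged ENR (median 10.2%). The difference was -13.82 ± 4.53 points (adjusted p = 0.912 in limma, exact permutation p = 0.00497). The Cacna1g promoter, between this cluster and the body, differed by 0.620 points over 29 CpGs, with means of 5.22% in Young STD and 5.84% in Aged STD.

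The next cluster for aging was that of Cacnb1, over a coding exon and its border, with 8 CpGs. Young STD mice had 84.1 ± 8.54% (n = 6), Aged STD mice 95.9 ± 5.33% (n = 5) and Aged ENR mice 95.7 ± 5.42% (n = 7). The third lay 586 to 835 bp inside Kcnc4 (22 CpGs), where Young STD mice had -0.253 ± 1.13% (n = 8), Aged STD mice 2.77 ± 3.05% (n = 6) and Aged ENR mice 0.341 ± 0.403% (n = 8).

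For ENR, the smallest p was at an intronic cluster of Cacna1d with 4 CpGs. The lowest, median and highest Young STD mouse had 95.0, 99.0 and 101%, and for Aged STD these were 99.0, 100 and 101%. For Aged ENR they were 74.3, 83.3 and 100%. Of the 6 Aged ENR mice, 4 lay below every mouse of the other groups. The difference was -14.09 ± 3.63 points (adjusted p = 0.967 in limma, exact permutation p = 0.00699).

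An intronic cluster of Cacna1c followed, with 66.7, 100, 57.1 and 66.7% in the 4 Young STD mice, 100, 66.7, 100 and 100% in the 4 Aged STD mice and 0, 66.7, 66.7, 66.7 and 25.1% in the 5 Aged ENR mice (exact permutation p = 0.0794 for ENR). A second Cacna1d cluster of 4 exonic CpGs (chr14:30129569-30129640) had 24.1 ± 3.79% in Aged STD and 11.0 ± 10.4% in Aged ENR (n = 6 each, exact permutation p = 0.0260). Between Aged ENR and Young STD, the Cacna1d intronic and Cacnb1 clusters came first again, and a Cacna1a intronic cluster of 10 CpGs was the third, with 92.1 ± 11.0% in 8 Young STD and 68.0 ± 22.9% in 7 Aged ENR mice.

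The reference sequences of 4 of these clusters show where the measured CpGs, in capitals, sit around the MspI sites. They are the plus strand of GRCm38 from 5′ to 3′, with 15 bases on either side of the first and last CpG. The Cacnb1 cluster held 7 CGs in 161 bases, the Cacna1a cluster 10 in 171, the Cacna1d cluster 6 in 199 and the Cacna1c cluster 3 in 74.
Cacnb1, chr11:98009520-98009680: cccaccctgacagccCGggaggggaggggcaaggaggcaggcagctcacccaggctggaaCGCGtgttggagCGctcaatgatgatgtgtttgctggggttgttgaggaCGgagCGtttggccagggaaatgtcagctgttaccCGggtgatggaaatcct
Cacna1d, chr14:30047485-30047683: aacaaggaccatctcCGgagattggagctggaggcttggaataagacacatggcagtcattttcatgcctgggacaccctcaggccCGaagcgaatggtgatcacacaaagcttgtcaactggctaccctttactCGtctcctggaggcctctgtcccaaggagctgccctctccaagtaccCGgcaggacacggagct
Cacna1c, chr6:118813764-118813837: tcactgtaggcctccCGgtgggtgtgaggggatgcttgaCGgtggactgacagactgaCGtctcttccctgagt
Cacna1a, chr8:84597330-84597500: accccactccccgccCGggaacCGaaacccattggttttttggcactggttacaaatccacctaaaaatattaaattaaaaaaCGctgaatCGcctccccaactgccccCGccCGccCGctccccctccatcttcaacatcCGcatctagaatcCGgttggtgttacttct

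The spread between mice was set beside that over all genes, and what size of difference it left detectable was not tested. The pooled SD of a channel promoter had a median of 3.40 points over the tested genes, beside 3.17 over all genes, and reached 16.9 points at Kcnh2. One of its Aged ENR mice stood at 91.4%, against a group median of 24.1%. In bodies the median SD was 6.74 points, beside 8.65 over all genes, and the lowest, 1.83 points, was that of Kcna1. Opposite strands of a CpG were both listed at 198 channel sites. They differed by over 25 points in 13.6% of 2168 mouse values, and at the 262 with an intermediate mean the median difference was 53.8 points.

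The 64 other ion channel genes of the same families were tested in the same fits. For aging, 0 of 41 promoters and 0 of 46 bodies had an adjusted p under 0.05 in limma, against 0.0064 and 0% of all. Unadjusted p-values under 0.05 were reached by 3 promoters and 3 bodies, beside 5.37% of all promoters and 6.1% of all bodies. For ENR the adjusted counts were 0 and 0, against 0.0128 and 0% of all. Unadjusted, they were 3 promoters and 1 body, beside 4.75 and 5.03% of all. Over these 46 bodies, the median difference was -1.16 points for aging and 0.0927 for ENR. By class, the medians for aging and ENR were -1.58 and -0.178 points in 30 potassium and -2.34 and -0.296 in 7 sodium bodies. The 8 other calcium channel bodies went the other way with age, with a median of 5.02 points (-5.80 to 13.3) and 3.22 for ENR. The 15 calcium channel bodies above had a median of -2.50 points for aging. The only other HCN body had -0.424 and 0.612 points. Dentate gyrus holds several cell types, and in bulk DNA a shift in their shares and a change within cells cannot be told apart. Among 32 marker genes of neurons, oligodendrocytes, astrocytes, microglia and endothelium, 16 promoters and 22 bodies were tested and none passed in limma for aging or ENR. Without adjustment, 3 of the 16 promoters and 1 of the 22 bodies had a p under 0.05 for aging, beside 5.37 and 6.1% of all. For ENR these were 1 promoter and 1 body, beside 4.75 and 5.03% of all. Over the 22 tested marker bodies, the median difference was -1.72 points for aging and 1.29 points for ENR. By type, the median body differences for aging and ENR were -2.12 and -1.33 points in 7 neuronal, 1.27 and 3.97 in 5 oligodendrocyte, 2.19 and 0.821 in 2 astrocyte and -1.18 and 0.971 in 5 microglial markers. The 3 endothelial marker bodies were all lower with age (-8.74 to -2.09 points, median -3.46) and all higher with ENR (1.75 to 7.67 points, median 6.45), beside -3.15 and 0.248 points in calcium channel bodies. Among marker promoters, all 4 tested in oligodendrocytes were lower with ENR (-4.17 to -2.67 points, 1 with an unadjusted p under 0.05), and all 4 in astrocytes were higher with age (0.609 to 3.59 points, 1 with an unadjusted p under 0.05). The median promoter differences for aging and ENR were 0.663 and 0.160 points in 5 neuronal markers, -1.13 and -11.9 in 1 microglial marker, -0.384 and 1.28 in 2 endothelial markers, 1.59 and -3.41 in the oligodendrocyte and 1.80 and -0.174 in the astrocyte markers. Over the 16 marker promoters the median difference was 0.824 points for aging and -1.37 for ENR. The part of cell composition in the channel values was not tested.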

How the data were processed

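DNA methylation was measured by RRBS in dentate gyrus of 24 female mice, 8 per group. The authors deposited a table of methylation percent per CpG, strand and mouse, and per the labels used Trim Galore 0.4.0, cutadapt 1.8.1, Bismark 0.16.1 and methylKit 1.5.2 on mm10. The study's methods name other versions of Trim Galore and Bismark. They kept CpGs with at least 10 reads, not above the 99.9th percentile of coverage, and at least 3 mice per group. The table holds no read numbers, so the depth behind a value is unknown.

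Here, a gene's value in a mouse was the mean deviation of its covered CpGs from each CpG's mean (over the 3 group means), plus the mean over CpGs. Genes needed 5 CpGs, a mouse 3 of them, and each group 4 such mice. Clusters needed 3 CpGs, and a mouse 2. limma 3.58.1 (R 4.3.3) was fitted with 1 mean per group on all 24 mice and all features of the table, with Benjamini-Hochberg adjustment over each fit. Single values were tested with exact two-sided permutation of mice, without adjustment for how these values were picked. The steps were tested on simulated data. Sequences came from GRCm38 and RefSeq, annotation from GENCODE M21.

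Named with values were genes with an adjusted p under 0.05, the highest and lowest per class and compartment with at least 10 CpGs, the 5 with the smallest p per compartment for aging and for ENR, the 5 with the most opposite CpGs (ties kept) and the 3 opposite CpGs with the most mice. The 3 CpGs and 3 clusters with the smallest p per contrast were named too. The start sites, Cacna1c, Kcnt1 and the Kcnh2 promoter were named after their values were seen. Members and lists were chosen with earlier results of these data known. The mice were individual animals, and the replicate numbers of different groups do not name the same animal.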

Additional observations from a re-analysis of the deposited data

Results flagged for a closer look

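A sample far from the others of its group, by a gap test that flags about 1 group in 20 by chance, was found in 8 of 78 groups of mice tested over the class values and the named genes. By class, these were calcium channel promoters in Aged STD replicate 1 (3.52%, next lowest 4.61%) and in Aged ENR replicate 1 (6.00%, next highest 4.64%). They were also calcium channel bodies in Aged ENR replicate 2 (54.5%, next lowest 58.2%) and sodium channel bodies in Aged STD replicate 7 (42.3%, next lowest 50.5%). By gene, the promoter of Kcnc1 stood at -8.69% in Aged ENR replicate 1, against 1.68% in the next lowest mouse. The promoter of Kcnc4 stood at 17.6% in Aged STD replicate 7, against 7.24%, and that of Hcn4 at 10.2% in Aged ENR replicate 5, against 4.38%. The body of Kcnma1 stood at 48.8% in Aged ENR replicate 2, against 56.8%.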

How the results depend on the processing

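The 12 counts of channel CpGs, promoters, bodies and clusters past an adjusted p of 0.05 were 0, and were above 0 under 3 of 240 alternatives. All 3 came with a replicate block, which called 2 channel CpGs for aging, 1 for ENR and 1 between Aged ENR and Young STD. Same-numbered mice of different groups did not deviate together (mean correlation -0.00387 over 8628 CpGs), so that the numbers do not pair them. With the block, the ENR difference of the Kcnc2 promoter was -29.5 points in place of -18.08. Counts by size and their shares of CpGs were lower with 5 or 7 than with 3 mice per group: requiring 5 mice per group kept 771 channel CpGs, of which 13 were higher and 32 lower with age, 18 and 20 with ENR, 11 and 27 in Aged ENR against Young STD, and 13 opposite. Requiring 7 mice kept 120 (where the share for aging was 6.67%, against 5.84% with 5 mice and 9.76% with 3), with 2 and 6, 1 and 3, 0 and 4, and 2. A threshold of 40 points gave 29 and 49, 29 and 34, 22 and 49, and 24. Group medians, and leaving out Aged STD replicate 5, kept each of these counts within 1.5 times. Class differences moved by over 1 SD in 4 of 448 settings. Over CpGs with 5 mice per group, ENR gave -1.71 points at calcium and 0.57 at potassium channel promoters. As a plain mean, aging gave -1.25 points at potassium and ENR -2.65 at sodium channel promoters. Differences of the 20 named gene values changed sign in 4 of 612 settings, namely Cacnb3 promoter for aging (0.015 points, 5 mice per group), Cacnb3 body for aging (0.84, promoter window of 2 kb), Scn8a promoter for ENR (-2.65, plain mean) and Cacnb1 body for aging (-9.83, plain mean). The cause was not tested.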
